A study of Mus musculus with 7 samples.

Results

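Chemokines are small secreted proteins that guide leukocytes, and chemokine receptors are the cell-surface proteins that read them. The genes described here are those whose symbols are Ccl, Cxcl, Ccr or Cxcr followed by a number and at most 1 letter, with 1 symbol left out by the rule. The deposited tables held 58 Ensembl identifiers with 51 such symbols among 51426 genes: 30 CC ligands, 13 CXC ligands, 9 CC receptors and 6 CXC receptors. Of the 58, 37 (63.8%) had at least 10 reads in total over the 7 livers and were tested together with every other gene above that limit, 18553 in all. The tested members were 18 CC ligands, 10 CXC ligands, 4 CC receptors and 5 CXC receptors, which carried 35 symbols.

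The livers came from male mice, labelled C57BL/6J in both groups and fed a high-fat diet (HFD) for 16 weeks, a diet that the study's methods start at the age of 8 weeks and that both groups received. The 3 WT livers were compared with 4 livers of whole-body TET1 knockout (TET1 KO) mice, which lack a dioxygenase that oxidises methylated cytosine. Per the study's methods, the knockouts descend from the B6;129S4-Tet1tm1.1Jae/J line, and the study describes the controls as littermates. The name of that line records a mixed B6 and 129S4 origin, and how far the knockouts were backcrossed is not given in the sources used here. The knockout is whole-body, so it covers leukocytes as well as liver cells, and no group on another diet was used here.

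Leukocytes sense a chemokine gradient through receptors coupled to inhibitory G proteins, which turn on cytoskeletal movement towards the source. CC and CXC ligands are named for the spacing of their first cysteines. In the liver, sinusoidal endothelium, stellate cells, Kupffer cells, cholangiocytes and stressed hepatocytes are all known sources, and ligands such as CCL2 and CXCL1 are known for bringing monocytes and neutrophils into fatty livers. Some family members act in the absence of inflammation, above all CXCL12, which retains haematopoietic cells through CXCR4.

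The libraries held 15005277 to 22746138 reads assigned to genes, so that 1 CPM, the unit of reads scaled to library size, stood for 15.01 to 22.75 reads before normalisation. The members took 0.0292% to 0.0458% of these reads. The 6 hepatocyte markers examined, such as Alb, were all detected and summed to between 63460 and 84850 CPM. Tet1 itself had 1, 4 and 1 reads in the WT livers and 2, 1, 4 and 1 in the TET1 KO livers, too few to check the genotype. These are whole-liver RNA samples, in which fewer cells of a type and less RNA per cell cannot be told apart.

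No tested member passed the test. The edgeR quasi-likelihood test with Benjamini-Hochberg adjustment called 0 of the 37 members at an adjusted p under 0.05, beside 1.53% of all genes tested (283 of 18553, 0.593% higher and 0.932% lower). At an unadjusted p under 0.05, the same test gave 7 members, all higher in TET1 KO livers and all ligands, beside 23.9% of all genes (11.7% higher and 12.2% lower). Those 7 were Ccl27a, Ccl25, Ccl9, Ccl21a, Ccl21b, Cxcl11 and Cxcl5. Counted in either direction, the share of members at this limit was below the background, and counted in the higher direction alone it was above it. The higher share cannot be read as a shift of the family, since it includes members that rest on few reads or 1 liver. Ccl21b held 0, 1 and 0 reads in WT and 5, 1, 1 and 3 in TET1 KO livers, and reached the read limit for testing through the TET1 KO reads. Cxcl5 had 174 of its 202 reads in TET1 KO liver 4, and its unadjusted edgeR p was 0.42 without that liver. DESeq2 on the same genes called 3 members, Ccl9, Ccl25 and Ccl27a, all higher, beside 7.36% of all genes (3.46% higher and 3.9% lower). It gave an adjusted p to 19 of the 37 members, and 5 members an unadjusted p under 0.05, beside 21.4% of all genes.

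The fitted log2 fold changes, TET1 KO over WT, were above 0 for 23 of the 37 tested members, beside 51% of all genes, with a median of 0.60 beside 0.01 over all genes. In 5 of these members the WT livers held at most 3 reads each, so that their fitted values rest on few WT reads. Over the other 32 members the median was 0.16. The CPM values of the groups did not overlap for 4 members, all higher in TET1 KO livers, beside 19.7% of all genes (9.56% higher). These were Ccl25, Ccl21b and 2 of the 3 identifiers that carry the symbol Ccl27a. Counted in either direction this share was below that of all genes, and in the higher direction it was close to it.

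**Figure D1:**
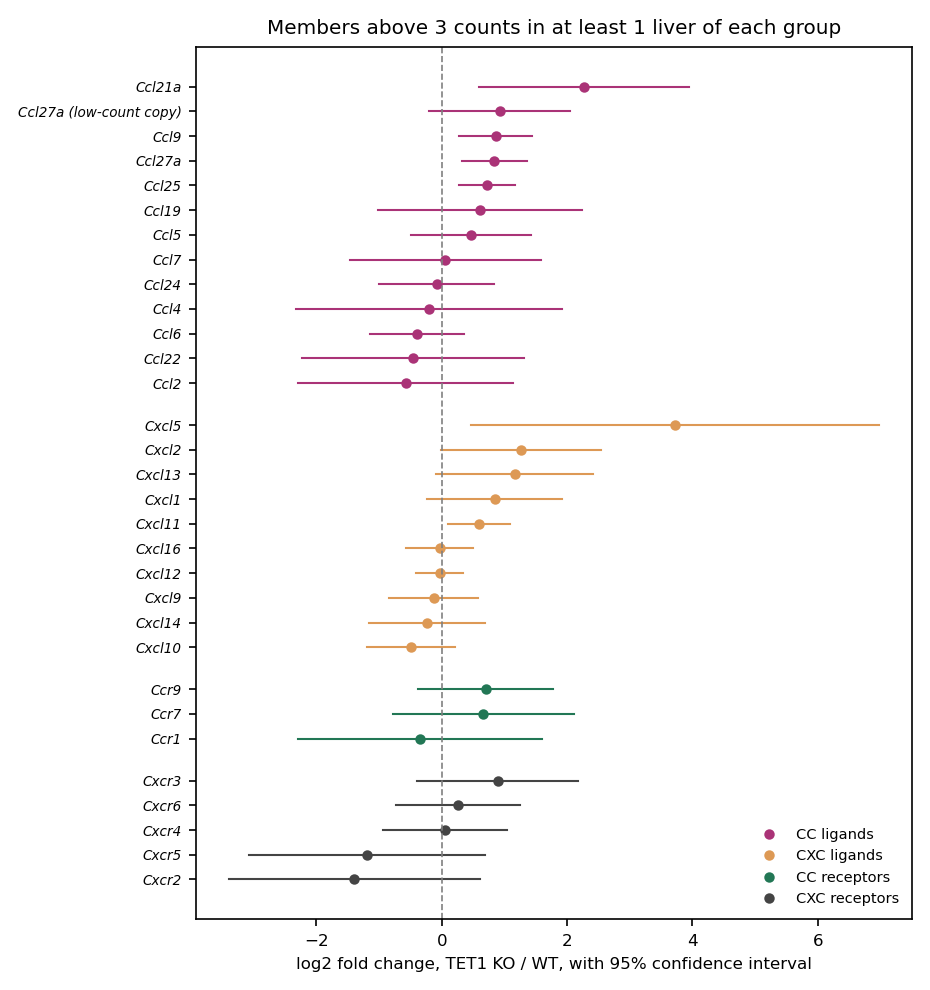
Log2 fold change of TET1 KO over WT (horizontal axis) with its 95% confidence interval for 31 of the 32 tested members that held more than 3 reads in at least 1 liver of each group, ordered by family and value. Most intervals cross the dashed line at 0, and those of Ccl21a, Ccl9, Ccl27a, Ccl25, Cxcl5 and Cxcl11 lie above it, none with an adjusted p under 0.05 in edgeR.

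In reads, not scaled by gene length, 1 homeostatic chemokine took the largest share. Cxcl12, which holds CXCR4-bearing blood progenitors and lymphocytes in tissues, took 57.4% to 76.1% of all member reads in a liver. It measured 228, 251 and 209 CPM in the WT livers and 169, 278, 238 and 213 CPM in the TET1 KO livers. The highest and the lowest value were both from TET1 KO livers, and the WT values lay between them. The means were 229.5 ± 21.2 (SD, n = 3) and 224.2 ± 45.7 CPM (SD, n = 4), with a log2 fold change of -0.03 (SE 0.17, 95% confidence interval -0.41 to 0.35). The edgeR adjusted p was 0.921, and the sign turned when WT liver 2, TET1 KO liver 1 or TET1 KO liver 4 was left out. RefSeq places Cxcl12 on chromosome 6 at 117168535-117181368 (GRCm38.p6).

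The neutrophil-attracting ligand Cxcl1 came next at a mean of 19.1 ± 13.0 CPM in WT and 34.4 ± 23.4 CPM in TET1 KO livers (SD). Together, Cxcl12 and Cxcl1 took 66.0% to 78.7% of the member reads. Only 4 tested members reached a mean of 10 CPM over the 7 livers, another 13 lay between 1 and 10 CPM, and 20 lay under 1 CPM. The 10 leading members took 91.3% to 95.9% of member reads. Per kilobase of exon, a scale that allows levels of genes to be compared, Cxcl1 (29.2 CPM per kb) stood beside Cxcl12 (27.7), followed by Ccl9 (6.26), Ccl27a (5.66), Ccl6 (3.94), Ccl25 (3.40) and Cxcl9 (3.13). Exon lengths were matched for 32 of the 37 tested members. The spread of Cxcl1 between livers was larger than its distance from Cxcl12 on this scale.

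**Figure D2:**
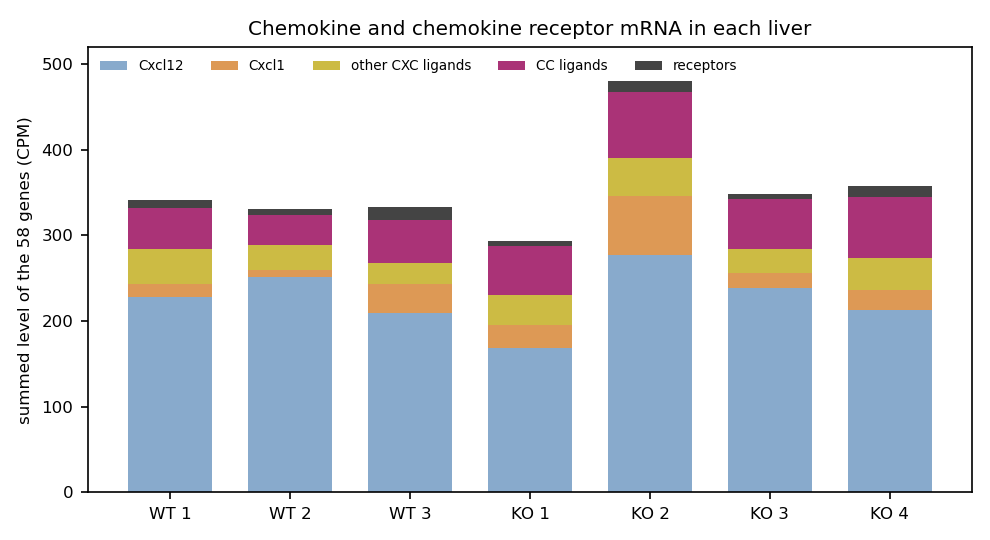
Summed TMM-normalised CPM of the 58 genes in each liver (vertical axis), divided into Cxcl12, Cxcl1, the other CXC ligands, the CC ligands and the receptors. Cxcl12 fills most of every bar, the CC ligand segment is taller in each TET1 KO liver than in any WT liver, and TET1 KO liver 2 has the tallest bar, 480 CPM.

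**Figure D3:**
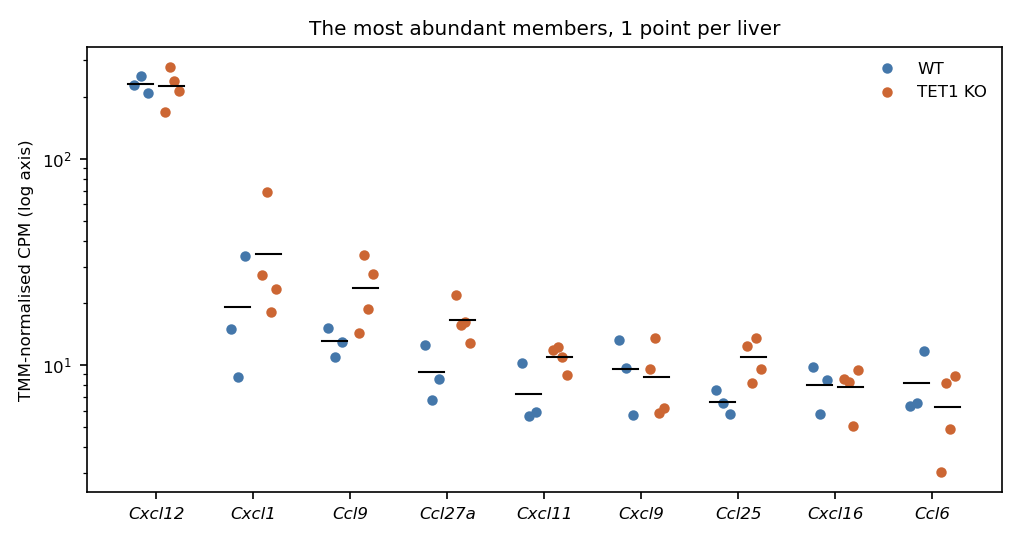
TMM-normalised CPM (log axis) of 9 of the 10 most abundant members, with 1 point per liver and a line at each group mean (3 WT livers in blue, 4 TET1 KO livers in orange). The groups overlap for each of these genes other than Ccl27a and Ccl25.

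The CC ligands carried the members with the smallest p values. Their summed level was 48.3, 35.2 and 50.1 CPM in the WT livers and 56.4, 77.1, 58.1 and 71.8 CPM in the TET1 KO livers. Every TET1 KO liver was above every WT liver. Most of the sum came from Ccl9, Ccl27a and Ccl25, which together gave 24.2 to 35.2 CPM in WT and 48.4 to 57.8 CPM in TET1 KO livers. The remaining 27 CC ligand identifiers summed to 10.97 to 22.79 CPM in WT and 8.08 to 21.9 CPM in TET1 KO livers, ranges that overlapped almost whole. Of the marker lists examined, those of cholangiocytes and of dendritic cells also had sums that did not overlap. The 5 cholangiocyte markers summed to 29.6 to 38.1 CPM in WT and 45.5 to 67.4 CPM in TET1 KO livers, and the 6 dendritic cell markers to 10.2 to 12.95 and 13.7 to 17.0 CPM. Most of the cholangiocyte sum came from Spp1 (means 24.6 CPM in WT and 36.2 in TET1 KO) and Sox9 (6.27 and 14.3). Krt7 and Krt19 overlapped between the groups. Most of the dendritic cell sum came from Zbtb46 (6.22 and 7.98 CPM) and Clec9a (3.98 and 4.72 CPM). Of the dendritic cell markers, 4 had a log2 fold change above 0, while Flt3 (-0.19) and Xcr1 (-0.23) were below. None of the dendritic cell markers was called by edgeR or DESeq2 or had an unadjusted p under 0.05 in edgeR, and all of them were above 3 reads in at least 1 liver. The part of these cells in the CC ligand sum was not tested.

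Ccl27a encodes a ligand of CCR10 best known from keratinocytes, where it draws T cells to skin. Its main identifier (ENSMUSG00000073888) measured 12.5, 6.78 and 8.53 CPM in the WT livers and 21.8, 15.6, 16.2 and 12.8 CPM in the TET1 KO livers. The groups did not overlap, although WT liver 1 and TET1 KO liver 4 nearly met. The means were 9.27 ± 2.93 (SD, n = 3) and 16.6 ± 3.75 CPM (SD, n = 4), a 1.79-fold difference with a log2 fold change of 0.84 (SE 0.23). The adjusted p was 0.0853 in edgeR and 0.0184 in DESeq2. Without TET1 KO liver 4 the edgeR log2 fold change was 0.96 and Ccl27a passed the test (adjusted p = 0.0493), in a fit that called 4.1% of all genes (1.86% higher and 2.25% lower). In the other 6 fits that left out 1 liver it did not pass, with log2 fold changes from 0.66 (without WT liver 2, edgeR adjusted p = 0.325) to 1.12 (without WT liver 1). The further identifiers with this symbol, which may share reads with it, held 21 and 39 reads in total and did not pass the test. That with 21 reads, whose groups did not overlap in CPM, held 2, 3 and 2 reads in WT and 4, 2, 5 and 3 in TET1 KO livers.

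RefSeq places Ccl27a on the minus strand of chromosome 4 at 41769467-41774225 (GRCm38.p6), where its end overlaps that of Il11ra1, a cytokine receptor gene on the plus strand, by 7 bases. Il11ra1 measured 32.5, 21.8 and 31.4 CPM in the WT livers and 44.6, 44.3, 45.3 and 36.8 CPM in the TET1 KO livers. It too was higher in each TET1 KO liver than in any WT liver, with a log2 fold change of 0.58 (SE 0.16) and an edgeR adjusted p of 0.0850. The CPM of Ccl27a divided by that of Il11ra1 was 0.385, 0.311 and 0.272 in WT and 0.488, 0.353, 0.357 and 0.348 in TET1 KO livers, and these ratios overlapped between the groups. Since the strand setting of the counting is not given in the sources used here, reads of these neighbours could not be separated by strand, and the part of Il11ra1 transcripts in the Ccl27a count was not tested. The hepatokine gene Enho lies 129165 bases away and was called by edgeR (log2 fold change 2.29, SE 0.47, adjusted p = 0.0399).

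Ccl25 encodes the ligand of CCR9, known for directing T cells to the thymus and small intestine and made in inflamed liver. It measured 7.54, 6.52 and 5.78 CPM in the WT livers and 12.3, 8.17, 13.6 and 9.54 CPM in the TET1 KO livers. No TET1 KO liver fell among the WT livers. The means were 6.61 ± 0.885 and 10.9 ± 2.48 CPM (SD), a 1.65-fold difference with a log2 fold change of 0.72 (SE 0.21). The adjusted p was 0.0870 in edgeR and 0.0298 in DESeq2, and leaving out single livers moved the log2 fold change between 0.61 and 0.85 with no edgeR call. RefSeq places Ccl25 on chromosome 8 at 4325205-4360020.

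Ccl9 encodes a macrophage and myeloid chemokine that acts through CCR1. It measured 15.2, 10.9 and 13.0 CPM in the WT livers and 14.3, 34.0, 18.6 and 27.6 CPM in the TET1 KO livers. TET1 KO liver 1 lay among the WT livers, and the other three lay above them. The means were 13.0 ± 2.15 and 23.6 ± 8.87 CPM (SD), a 1.81-fold difference with a log2 fold change of 0.86 (SE 0.27). The adjusted p was 0.0997 in edgeR and 0.0297 in DESeq2. Its neighbour Ccl6, on chromosome 11 at 83587886-83593087, did not share this pattern, as described below.

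**Figure D4:**
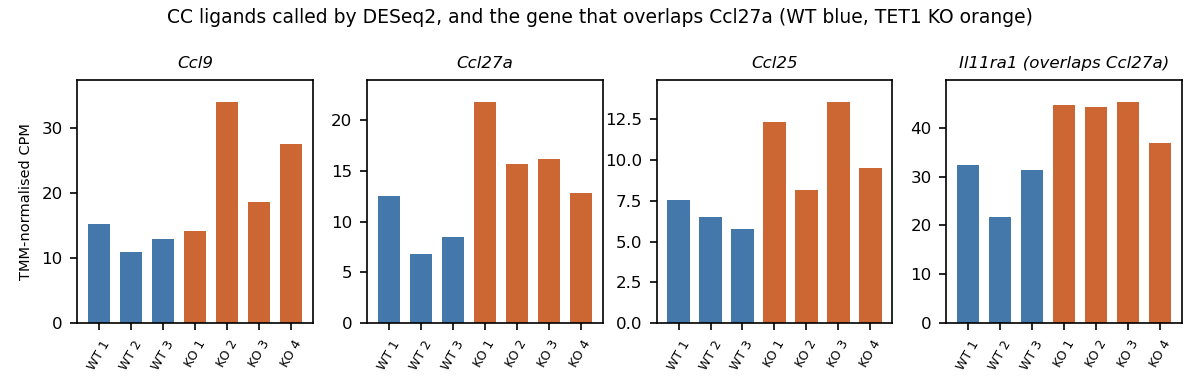
TMM-normalised CPM per liver of Ccl9, Ccl27a and Ccl25, the 3 members called by DESeq2, and of Il11ra1, whose end overlaps that of Ccl27a (WT in blue, TET1 KO in orange). Ccl27a, Ccl25 and Il11ra1 are higher in every TET1 KO liver than in any WT liver, whereas Ccl9 in TET1 KO liver 1 (14.3 CPM) lies within the WT range.

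TET1 acts on methylated CpG dinucleotides, so the 250 bases before the start sites of Cxcl12, Ccl27a and Ccl25, the leading homeostatic ligand and the 2 CC ligands that DESeq2 called and whose groups did not overlap, are shown with CG in capitals. Methylation was not measured in these libraries. The sequences are from RefSeq (GRCm38.p6) and run 5′ to 3′ on the strand of the gene, and for genes with several start sites the first listed was used. Cxcl12 is chr6:117168285-117168534 on the plus strand, Ccl27a is chr4:41774177-41774426 on the minus strand, and Ccl25 is chr8:4324960-4325209 on the plus strand.
Cxcl12: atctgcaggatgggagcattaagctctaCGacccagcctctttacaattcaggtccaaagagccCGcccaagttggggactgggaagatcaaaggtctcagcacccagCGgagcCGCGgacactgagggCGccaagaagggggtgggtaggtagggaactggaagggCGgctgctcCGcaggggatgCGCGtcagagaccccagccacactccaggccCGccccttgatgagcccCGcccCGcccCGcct
Ccl27a: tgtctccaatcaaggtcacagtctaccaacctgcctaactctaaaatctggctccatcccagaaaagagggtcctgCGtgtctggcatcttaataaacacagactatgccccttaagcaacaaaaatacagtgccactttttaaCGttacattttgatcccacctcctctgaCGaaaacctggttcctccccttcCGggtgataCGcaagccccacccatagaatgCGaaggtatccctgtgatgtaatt
Ccl25: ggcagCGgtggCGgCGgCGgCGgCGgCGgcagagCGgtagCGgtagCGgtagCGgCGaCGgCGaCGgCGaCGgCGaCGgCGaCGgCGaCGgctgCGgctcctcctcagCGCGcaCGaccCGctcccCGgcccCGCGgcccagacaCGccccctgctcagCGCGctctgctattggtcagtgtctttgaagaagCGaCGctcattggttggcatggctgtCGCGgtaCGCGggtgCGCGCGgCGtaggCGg
The Ccl25 window holds 45 CpG, a count that 0.411% of the 27025 gene promoters in the table reach. The window of Ccl9, the other member that DESeq2 called, holds 2, a count that 80.6% of promoters reach. The Cxcl12 window holds 14 (reached by 29.6% of promoters) and the Ccl27a window 6 (reached by 50.5%), which is also the median over all promoters. Among the 24 tested member symbols found in the table, the median was 4 and none had 0. The window listed for Ccl21b, the further CC ligand whose groups did not overlap, holds 37, but several identifiers share that symbol.

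For the inducible ligands Cxcl1 and Ccl9, the same window is shown with matches to GGG and TTCC with any 3 bases between them, core letters bound by NF-κB, in capitals, searched on both strands. Cxcl1 is chr5:90890995-90891244 on the plus strand and Ccl9 is chr11:83578637-83578886 on the minus strand.
Cxcl1: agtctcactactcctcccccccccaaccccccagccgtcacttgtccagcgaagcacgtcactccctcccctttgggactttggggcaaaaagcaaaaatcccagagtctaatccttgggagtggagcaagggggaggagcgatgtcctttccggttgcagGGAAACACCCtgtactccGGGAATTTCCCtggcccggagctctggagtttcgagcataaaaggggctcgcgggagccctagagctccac
Ccl9: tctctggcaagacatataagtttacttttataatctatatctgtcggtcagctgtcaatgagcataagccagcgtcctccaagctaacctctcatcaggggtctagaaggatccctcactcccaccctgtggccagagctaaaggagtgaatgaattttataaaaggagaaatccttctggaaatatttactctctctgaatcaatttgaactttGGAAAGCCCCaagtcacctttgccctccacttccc
The Cxcl1 window holds 2 such stretches, one of them formed by overlapping matches on both strands, and the Ccl9 window holds 1. At least 1 match was found in 5 of the 24 member windows (Cxcl1, Cxcl2, Cxcl10, Ccl9 and Ccl20) and in 4.6% of all promoters. The pattern GAAA, any 2 bases and GAAA again, known from interferon-response elements, was found in 3 member windows (Ccl19, Cxcl10 and Cxcl14) and in 3.04% of all promoters. A match in letters is a description and no evidence of binding.

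Among the other CC ligands that attract monocytes and macrophages, no difference between the groups passed the test, while single livers differed widely. Ccl6, a myeloid ligand of CCR1, measured 6.35, 6.52 and 11.7 CPM in WT and 3.02, 8.17, 4.88 and 8.84 CPM in TET1 KO livers. WT liver 3 was highest and TET1 KO livers 1 and 3 were lowest. Its log2 fold change was -0.39 (SE 0.34, 95% confidence interval -1.14 to 0.36, edgeR adjusted p = 0.506). Ccl2, the classical monocyte attractant, held 37, 22 and 87 reads in WT and 4, 49, 3 and 62 reads in TET1 KO livers. The same TET1 KO livers 1 and 3 were again lowest, with a log2 fold change of -0.58 (SE 0.78, edgeR adjusted p = 0.680) that became 0.27 without WT liver 3. The eosinophil ligand Ccl24 ranged from 0.987 CPM in TET1 KO liver 1 to 3.47 in WT liver 3 and 3.56 in TET1 KO liver 4, with TET1 KO liver 3 (1.73 CPM) above WT liver 1 (1.44 CPM) (log2 fold change -0.08, SE 0.42, edgeR adjusted p = 0.921).

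Macrophage markers also differed between livers. The 6 pan-macrophage markers examined (such as Csf1r and the complement genes C1qa, C1qb and C1qc) summed to 213, 183 and 303 CPM in WT and 136, 261, 153 and 274 CPM in TET1 KO livers. TET1 KO livers 1 and 3 were the lowest, as for Ccl6 and Ccl2, and WT liver 3 and TET1 KO liver 4 the highest, as for Ccl6 and Ccl24. None of these 6 markers was called, and all were detected in each liver. Their median log2 fold change was -0.20, and 0.036 without WT liver 3. The 7 Kupffer cell markers summed to 225 to 404 CPM in WT and 291 to 397 CPM in TET1 KO livers, with WT livers 1 and 2 lowest. Without C6, a complement gene with a log2 fold change of 1.00 (edgeR adjusted p = 0.0944, DESeq2 0.0153), the other 6 summed to 187, 174 and 281 CPM in WT and 123, 211, 150 and 281 CPM in TET1 KO livers, with TET1 KO livers 1 and 3 lowest. Of the 8 markers of monocyte-derived and lipid-associated macrophages, 7 had a log2 fold change below 0, with a median of -0.89 that was -0.40 without WT liver 1 and -0.30 without WT liver 3. Over all marker lists examined, Cd9, a tetraspanin of lipid-associated macrophages, was the only gene that edgeR called (log2 fold change -1.06, adjusted p = 0.0237), and it belongs to this last list. That call was lost without WT liver 1, 2 or 3 or without TET1 KO liver 3. The part of macrophage content in the values of Ccl6, Ccl2 and Ccl24 was not tested.

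The remaining monocyte and T cell ligands were scarce. Of the 7 inflammatory monocyte ligands (Ccl2, Ccl3, Ccl4, Ccl5, Ccl7, Ccl8 and Ccl12), 5 could be tested, and edgeR called 0 of them, also at an unadjusted p under 0.05, beside 1.53% and 23.9% of all genes. DESeq2 called 0 as well, but gave no adjusted p to 3 of the 5 (Ccl3, Ccl4 and Ccl7). Ccl5, which attracts T cells, measured 1.25 ± 0.65 CPM in WT and 1.76 ± 0.928 CPM in TET1 KO livers (SD), with a log2 fold change of 0.47 (SE 0.44) that fell to 0.09 without TET1 KO liver 2. Ccl3, Ccl4 and Ccl7 stayed at 10 reads or fewer in each liver. Ccl22, a ligand of CCR4 made by dendritic cells, held 0 to 7 reads.

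The lymphoid CC ligands lie in a stretch of chromosome 4 with several near-identical gene copies, and their reads are therefore uncertain. The Ccl21a identifier that was tested held 1, 1 and 4 reads in WT and 10, 3, 4 and 19 reads in TET1 KO livers. TET1 KO livers 1 and 4 stood above the WT livers, the other TET1 KO livers among them, with a log2 fold change of 2.27 (SE 0.77) and an edgeR adjusted p of 0.115. Leaving out single livers moved that log2 fold change between 1.75 (without TET1 KO liver 4) and 3.27 (without WT liver 3). The tested Ccl21b identifier held 0, 1 and 0 reads in WT and 5, 1, 1 and 3 in TET1 KO livers, so that its groups separated in CPM on single reads. The tested Ccl19 identifier held 1 to 8 reads in WT and 2 to 8 in TET1 KO livers (edgeR adjusted p = 0.637).

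Of the 10 tested CXC ligands, 0 were called by edgeR and 0 by DESeq2, and 2 (Cxcl11 and Cxcl5) had an unadjusted p under 0.05 in edgeR, beside 1.53%, 7.36% and 23.9% of all genes. DESeq2 gave no adjusted p to 1 of the 10, Cxcl2. The neutrophil attractants that share CXCR2 as a receptor, Cxcl1, Cxcl2 and Cxcl5, lie in a cluster on chromosome 5 between 90759298 and 90905938, and all had a log2 fold change above 0. Cxcl1 measured 14.9, 8.73 and 33.7 CPM in WT and 27.2, 69.0, 18.1 and 23.2 CPM in TET1 KO livers. The groups overlapped through WT liver 3, and TET1 KO liver 2 was far the highest. Its log2 fold change was 0.85 (SE 0.49, 95% confidence interval -0.23 to 1.92, edgeR adjusted p = 0.311). It was 0.27 without TET1 KO liver 2 and 1.54 without WT liver 3, with no call in either fit. Cxcl2 held 5, 1 and 9 reads in WT and 12, 7, 14 and 10 reads in TET1 KO livers (log2 fold change 1.27, SE 0.58, edgeR adjusted p = 0.210), and its log2 fold change ranged from 0.70 without WT liver 2 to 2.07 without WT liver 3.

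The interferon-induced ligands Cxcl9, Cxcl10 and Cxcl11, which call activated T cells through CXCR3, lie next to each other on chromosome 5, and none of them passed the test. Cxcl11 measured 10.2, 5.63 and 5.89 CPM in WT and 11.8, 12.2, 10.9 and 8.98 CPM in TET1 KO livers. WT liver 1 reached into the TET1 KO range, and the log2 fold change was 0.60 (SE 0.23, edgeR adjusted p = 0.144, DESeq2 adjusted p = 0.101). RefSeq lists Cxcl11 of this genome as a transcribed pseudogene. Cxcl9 measured 13.2, 9.66 and 5.72 CPM in WT and 9.56, 13.5, 5.84 and 6.16 CPM in TET1 KO livers, with the groups fully overlapping (log2 fold change -0.13, SE 0.32, edgeR adjusted p = 0.834). Cxcl10 measured 4.07 ± 1.01 and 2.94 ± 1.30 CPM (SD; log2 fold change -0.50, SE 0.32, edgeR adjusted p = 0.359). Cxcl10 and Cxcl11 both lie within the span of Art3, which held only 18 to 32 reads per liver.

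The other CXC ligands were level or scarce. Cxcl16, a membrane-bound ligand of CXCR6, measured 9.77, 5.80 and 8.48 CPM in WT and 8.51, 8.24, 5.08 and 9.44 CPM in TET1 KO livers. The groups overlapped almost whole, with a log2 fold change of -0.03 (SE 0.24, 95% confidence interval -0.57 to 0.50). Cxcl14, a ligand found in many epithelia, measured 2.00 ± 0.974 and 1.73 ± 0.765 CPM (SD; log2 fold change -0.24, SE 0.42). Cxcl13, which gathers B cells, held 7, 4 and 16 reads in WT and 23, 12, 8 and 29 reads in TET1 KO livers. WT liver 3 overlapped the TET1 KO livers, and the log2 fold change was 1.16 (SE 0.57, edgeR adjusted p = 0.238), between 0.73 without WT liver 2 and 1.96 without WT liver 3.

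The receptors were far lower than their ligands and gave no call. All 15 receptor identifiers summed to 6.69 to 14.3 CPM in WT and 5.99 to 12.8 CPM in TET1 KO livers, against 318 to 333 and 287 to 467 CPM for the ligands. Of the 9 receptors tested, edgeR called 0, and 0 had an unadjusted p under 0.05, beside 1.53% and 23.9% of all genes. DESeq2 gave an adjusted p to only 3 of the 9 and called none of those. A log2 fold change above 0 was found for 5 of them, beside 51% of all genes.

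Cxcr4, the receptor of Cxcl12, measured 1.08 ± 0.743 and 1.09 ± 0.342 CPM (SD; log2 fold change 0.06, 95% confidence interval -0.93 to 1.05). Cxcr6, carried by liver-resident T and NKT cells, measured 0.58 ± 0.176 and 0.696 ± 0.332 CPM (SD; log2 fold change 0.27, 95% confidence interval -0.72 to 1.25). Ccr9, the receptor of Ccl25, held 4 to 8 reads in WT and 5 to 10 in TET1 KO livers. Cxcr3, the receptor of Cxcl9 and Cxcl10, held 1 to 12 and 7 to 16 reads. Intervals of this width leave room for a change in either direction. Ccr10, the receptor of Ccl27a, held 1 read in the WT livers and 2 in the TET1 KO livers and was not tested.

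Several members were high in single livers of a group and were singled out after their values were seen. Cxcl5, a neutrophil attractant of epithelial cells, held 2, 5 and 4 reads in WT and 0, 17, 0 and 174 reads in TET1 KO livers. TET1 KO liver 4 held nearly all of its reads, and TET1 KO livers 1 and 3 held none. Its log2 fold change of 3.73 (SE 1.49, edgeR adjusted p = 0.162) became 0.96 (SE 1.15, adjusted p = 0.626) without that liver. Ccl20, an epithelial ligand of CCR6, held 23 reads in TET1 KO liver 4 and 0 in each other liver, where 0 reads allow at most 3. Ccl28, a mucosal epithelial ligand, held 13 reads in the same liver and 0 to 2 in the others.

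Of the 5 cholangiocyte markers examined, 3 were highest in that liver. Krt19, an epithelial keratin of bile ducts, held 20, 21 and 20 reads in WT and 19, 15, 33 and 144 reads in TET1 KO livers. Epcam held 5 to 13 reads in WT and 11, 14, 16 and 105 reads in TET1 KO livers, and Krt7 58 reads in TET1 KO liver 4 against 9 to 22 elsewhere. Sox9, in contrast, was lower in that liver (9.44 CPM) than in the other TET1 KO livers (12.5, 20.7 and 14.8 CPM), and Spp1 was highest in TET1 KO liver 2. The 5 markers summed to 29.6 to 38.1 CPM in WT and to 45.5, 67.4, 50.1 and 62.7 CPM in TET1 KO livers, highest in TET1 KO liver 2. All 5 had a log2 fold change above 0, with a median of 1.19 that was 0.53 without TET1 KO liver 4. EdgeR called 0 of them (4 had an unadjusted p under 0.05), and 1 (Sox9) without that liver, while DESeq2 called Sox9 (adjusted p = 0.00247) and Epcam (adjusted p = 0.0365). The part of biliary content in Cxcl5, Ccl20 and Ccl28 was not tested.

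In the WT group, liver 3 had the highest values of Cxcr2 and of most neutrophil markers. Cxcr2, the receptor of Cxcl1 on neutrophils, held 5, 4 and 33 reads in WT and 2, 5, 0 and 12 reads in TET1 KO livers. Cxcr2 had a log2 fold change of -1.40 (SE 0.91, edgeR adjusted p = 0.365), which became 0.34 without WT liver 3. The neutrophil markers S100a8 and S100a9 held 241 and 307 reads in WT liver 3 against 11 to 53 and 10 to 78 elsewhere. Csf3r of the same list did not set this liver apart, at 4.90 CPM against 4.63, 4.75 and 5.18 CPM in TET1 KO livers 1, 2 and 4. The 6 neutrophil markers examined summed to 36.8 CPM in that liver and to 3.43 to 12.8 CPM in the others, and Ly6g was at 0 outside it. Their median log2 fold change was -1.65 over 5 tested markers, and 0.51 over 4 without WT liver 3. The part of neutrophil content in the Cxcr2 value was not tested.

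In TET1 KO liver 2, the T cell ligand Ccl5 (45 reads) and Ccr7 (15 reads), a receptor of naive T cells and migrating dendritic cells, stood above the other TET1 KO livers, at 19 to 28 and 4 to 6 reads. The 10 T and NK cell markers examined summed to 11.9 CPM in this liver and to 5.74 to 6.48 CPM in the other TET1 KO livers. In WT they summed to 3.90 to 6.61 CPM, and none was called. Their part in the Ccl5 and Ccr7 values was not tested.

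**Figure D5:**
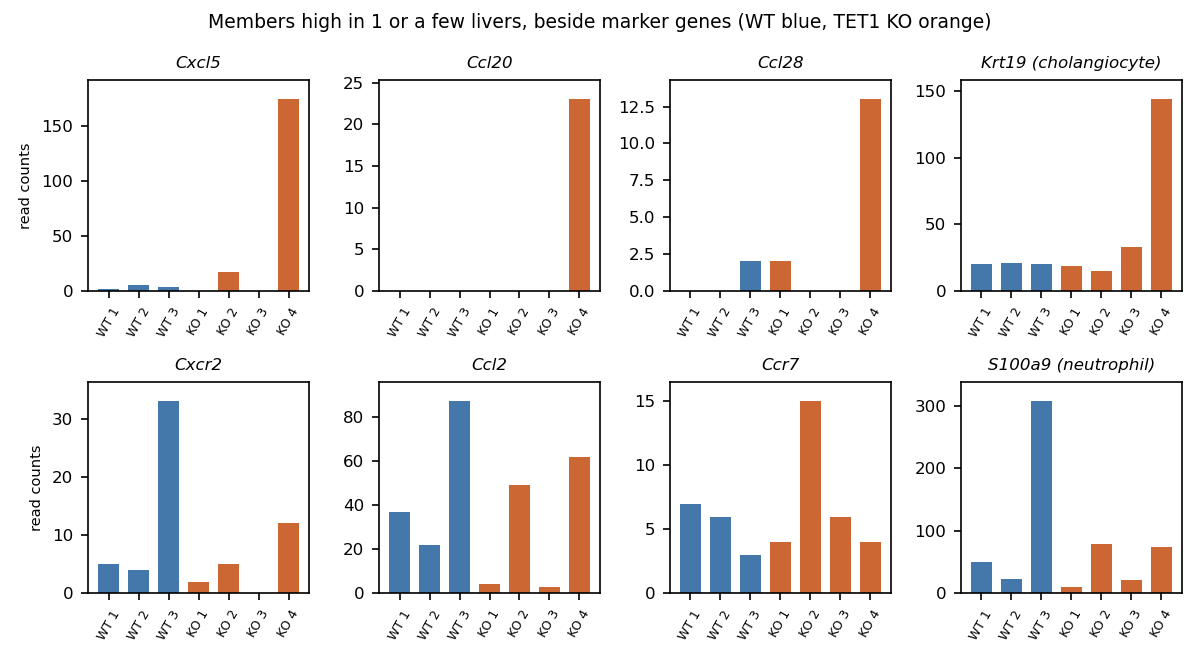
Read counts per liver of 6 members that were high in 1 or a few livers, beside the cholangiocyte marker Krt19 and the neutrophil marker S100a9 (WT in blue, TET1 KO in orange). Cxcl5, Ccl20, Ccl28 and Krt19 peak in TET1 KO liver 4, Cxcr2, Ccl2 and S100a9 in WT liver 3, and Ccr7 in TET1 KO liver 2.

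Chemokine genes sit in clusters, and neighbours did not share a direction in all of them. In the chromosome 11 cluster from Ccl5 to Ccl4 (83525778 to 83664683), 3 of 5 tested genes had a log2 fold change above 0, from -0.39 for Ccl6 to 0.86 for Ccl9. In the chromosome 11 cluster from Ccl2 to Ccl1, Ccl2 and Ccl7 could be tested and had values of -0.58 and 0.06. In the receptor cluster on chromosome 9, Ccr9 and Cxcr6 were above 0 and Ccr1 below. In the chromosome 5 cluster of Cxcl1, Cxcl2 and Cxcl5, all 3 tested genes were above 0. Leaving out single livers turned the sign of Ccr1 (-1.639 to 0.555), Ccl7 (-0.589 to 0.298), Ccl4 (-1.012 to 0.589) and Ccl2 (-1.094 to 0.273). The signs of Ccl6 and Ccl9 held.

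Of the other genes of the pathway, 50 were listed, 49 found and 44 tested, and 0 were called by edgeR. At an unadjusted p under 0.05 there were 7 of 44, 3 higher and 4 lower, a share below the 23.9% of all genes, and the median log2 fold change over the 44 was -0.07. DESeq2 called 1, Gnai3, an inhibitory G protein subunit that couples chemokine receptors, which had an edgeR log2 fold change of -0.46 (SE 0.13, adjusted p = 0.0890). The 3 genes higher at the unadjusted limit were Arrb2, a receptor-desensitising arrestin (log2 fold change 0.64), Nfkbia, the NF-κB inhibitor that NF-κB itself induces (0.51), and Irf1, an interferon-induced transcription factor (0.49). Lower beside Gnai3 were Tnfaip3, a brake on NF-κB (-0.82), Ppbp, a platelet chemokine (-1.27), and Dpp4, a peptidase that cleaves chemokines (-0.37). The inducers Il1b and Tnf had edgeR adjusted p values of 0.282 and 0.986, Il6 and Ifng held at most 3 reads in each liver, and Il17a, Il4 and Il13 held 0.

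The members that were not tested were 21 identifiers, of which 4 (Ccl26, Ccr8, Cxcl3 and Cxcl15) held 0 reads in each liver and 17 held 1 to 9 reads in total. Just inside the limit of 10 lay Ccl21b with 11, Ccl4 with 16 and Ccl28 with 17 reads. Just outside it lay a second Ccl21a identifier with 7 reads, then Ccr3, Ccr4, Ccl11, Ccl12 and a second Ccl19 identifier with 5 each. These genes held too few reads for the main test, and a fit without that limit, which tested 54 members, called 0.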

How the data were processed

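RNA-Seq libraries of 7 livers, 3 WT and 4 TET1 KO, all on HFD, were used, with groups and replicate numbers taken from the sample labels. The authors deposited raw read counts per gene, 1 table per mouse, made per the submitters' processing notes with Trimmomatic 0.36, GSNAP and featureCounts 1.5.3 on GRCm38. The annotation release and the strand setting of the counting are not given in the sources used here. Tables were joined by Ensembl identifier, since 26 identifiers had symbols that differed between tables, and 5 repeated entries with identical counts were dropped.

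Counts were tested in R 4.3.3 with edgeR 4.0.16 (TMM, glmQLFit, glmQLFTest, no covariates) on all genes with at least 10 counts in total, with Benjamini-Hochberg adjustment over all of them. DESeq2 1.42.0 was the alternative. The scripts were tested on simulated data. CPM are TMM-normalised, and SD values are over mice. P values measure the spread between these mice only. The replicate numbers did not pair the livers, as correlations of deviations were 0.143, -0.0801 and -0.0708.

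Named with per-liver values were members called by either tool, members whose groups did not overlap, and the 10 most abundant, and other members were named by role. The values of 1 tested member are not reported here. Motifs, clusters and members high in single livers were chosen after the values were seen. The members and lists were chosen with earlier results of these data known. Exon lengths came from GENCODE M1 by identifier, and positions and promoters from RefSeq GRCm38.p6 by symbol, where 36 of 51 member symbols had a promoter. No marker list is free of genes that other liver cells express, and Spp1 is in 2 lists.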

Additional observations from a re-analysis of the deposited data

Results flagged for a closer look

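Each of the 37 tested members and 12 gene lists was examined in the 4 TET1 KO livers for a single liver far from the rest, by the gap to the nearest liver divided by the range (Dixon's test). For normally distributed values chance marks about 1 in 20 groups, or 1.85 of 37 members. The CPM were not log-transformed and lay near 0 for many members, so the number marked cannot be set against 1.85. Marked were 5 members, 3 of them in TET1 KO liver 4. In that liver Ccl20 (ratio 1, the single liver with reads), Cxcl5 (0.853) and Cxcr5, the B cell receptor of Cxcl13 (0.833, 8 reads against 0 and 1 in the other TET1 KO livers), stood apart. Without it the log2 fold change of Cxcr5 was -3.47 (SE 1.06, edgeR adjusted p = 0.0727). In TET1 KO liver 2, Ccl5 (0.873), Ccr7 (0.861) and the summed T and NK cell markers (0.881) stood apart. The WT group of 3 livers was not examined in this way.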

How the results depend on the processing

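The count of members called was 0 in the fit reported and became 3 with DESeq2 (Ccl9, Ccl25 and Ccl27a), 1 with the replicate number as a block (Ccl27a, adjusted p = 0.0267) and 0 to 1 when single livers were left out (1 without TET1 KO liver 4). It stayed at 0 with filterByExpr (19 members tested), no filter on low counts, DESeq2 size factors, library sizes only, robust dispersion and fold limits of -3 and 3. Only the TET1 KO group has a replicate 4, so the block fit compares the groups without that liver, as does the fit that leaves it out. The cause of these changes was otherwise not tested. The block left 977 genes called in all against 283, DESeq2 1366, no filter on low counts 592, and leaving out single livers 41 to 743. The block turned the log2 fold changes of Cxcl9 (to 0.02) and Cxcr4 (to -0.09). Among 148 alternative values of 11 named members, 133 kept direction and side of the threshold, 5 passed it and 10 turned sign. Among these 11, the log2 fold changes that turned sign ranged, over single livers left out, from -0.138 to 0.081 for Cxcl12 (above 0 without WT liver 2 or TET1 KO liver 1 or 4), from -0.219 to 0.140 for Cxcl16 (without WT liver 1 or 3 or TET1 KO liver 3) and from -0.393 to 0.174 for Cxcl9 (without WT liver 1 or TET1 KO liver 3 or 4). For the 20 tested members under 1 CPM, depth limits what could be seen.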
